A study of Mus musculus with 4 samples.

Results

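The Hox cluster genes were followed in mouse jaw tissue taken as periodontal ligament, the fibrous layer that anchors teeth in their sockets. The members were all mouse genes whose symbol is Hoxa, Hoxb, Hoxc or Hoxd with a number from 1 to 13, found through the RefSeq accession of their probes. There were 39 such genes among 22911 named genes, and all 39 had a probe. Antisense and opposite-strand transcripts of the clusters were not members. The tissue was labelled PDL and came from wild type mice (WT) or from mice knocked out for Mkx (Mkx-KO), the gene of the transcription factor Mohawk. Mice were 10 or 4 weeks old, which made 4 groups, each genotype at each age. Every group was read on 1 one-colour Agilent array. The labels give no strain, sex, number of mice or design of the knockout allele.

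Hox genes encode homeodomain transcription factors that give cells of the trunk, limbs and hindbrain their position along the body axis. They lie in 4 clusters, A to D, and genes of the same number in different clusters are paralogues, with low numbers acting toward the head and high numbers toward the tail. The upper and lower jaw form from neural crest cells of the first pharyngeal arch, which is known as a Hox-free territory, whereas the second arch carries Hoxa2. Blood stem and progenitor cells are a known site of Hox gene activity, above all of the A and B clusters.

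Of 39 Hox genes, 6 were well above background on all 4 arrays: Hoxa7, Hoxa9, Hoxb3, Hoxb4, Hoxd4 and Hoxd8. Hoxb2 was well above background on both arrays of 4 weeks and on neither of 10 weeks, and Hoxb6 on the array of Mkx-KO at 10 weeks alone. The other 31 were not well above background on any array. The flag is that of the scanner software, and a gene was represented by its brightest probe. Per array, 6 Hox genes passed at 10 weeks in WT and 7 in Mkx-KO, and 7 passed in each genotype at 4 weeks. The share of all named genes that passed per array was 69.6% to 73.7%. The share on all arrays was 15.4% for Hox genes against 67.7% for all named genes, 15504 of 22911. With 1 array per group these counts are descriptions without a test.

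The 6 genes lay in 3 of the 4 clusters. In cluster A, 2 of 11 genes passed on all arrays, the neighbours Hoxa7 and Hoxa9. In cluster B, 2 of 10 passed, Hoxb3 and Hoxb4, with Hoxb2 beside them. In cluster D, 2 of 9 passed, Hoxd8 and Hoxd4, and Hoxd3, placed between them by gene start, was not well above background. In cluster C, all 9 genes were below the flag on every array. By number, none of the 12 genes of paralogue groups 10 to 13 passed on any array. Of the 27 of groups 1 to 9, 6 passed on all arrays, 2 on some and 19 on none. The highest numbers, known for their part in the limbs, the tail end and the genital tract, were thus not well above background in either genotype at either age. Some of them passed a laxer flag on some arrays, as given below.

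**Figure D1:**
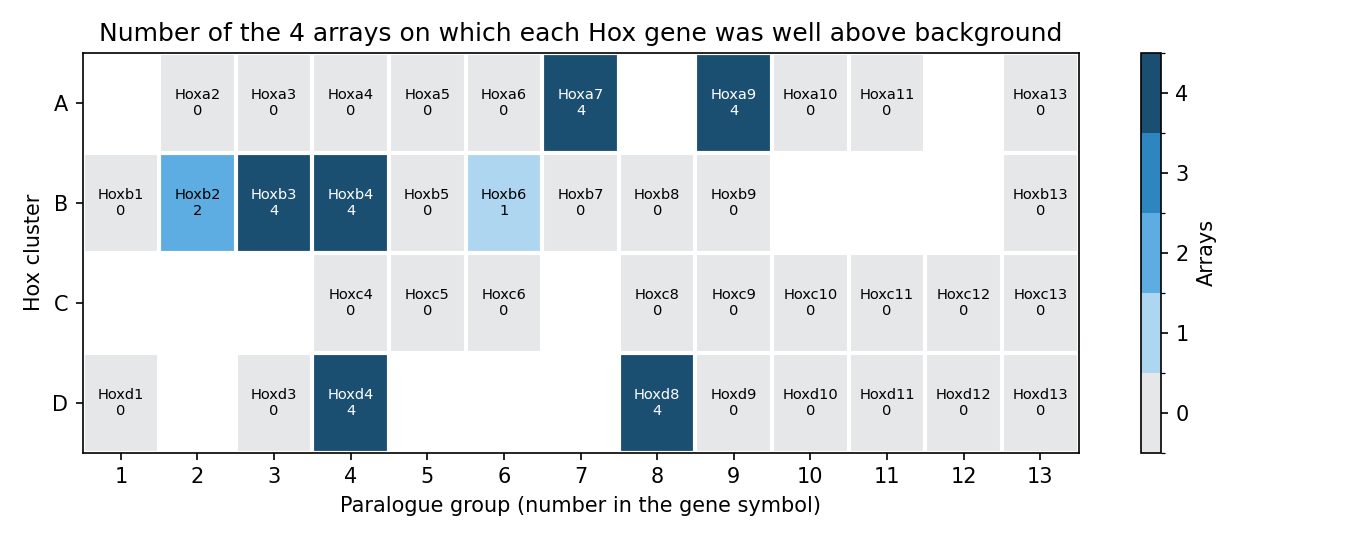
Grid of the Hox genes with the cluster on the vertical axis and the paralogue group on the horizontal axis; the number and colour of a cell give the count of arrays, out of 4, on which the gene was well above background, and blank cells are positions without a gene among the 39 members or not shown here. The 6 dark cells are Hoxa7, Hoxa9, Hoxb3, Hoxb4, Hoxd4 and Hoxd8, and row C holds only zeros.

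Most genes below the flag read close to negative control spots. Among 308 negative control spots per array, the median processed signal was between 2.36 and 2.64. The 31 undetected Hox genes had medians between 2.53 and 2.65. Their highest signals were 9.85 for Hoxc5 and 8.58 for Hoxa2 on the WT and Mkx-KO arrays of 10 weeks, then 10.1 and 10.98 for Hoxd9 in WT and Mkx-KO at 4 weeks. Above every negative control of their array were Hoxc5 in WT of 10 weeks, then Hoxa2, Hoxc5 and Hoxd13 in Mkx-KO of 10 weeks, Hoxa2 and Hoxd9 in WT of 4 weeks, and 0 of the 31 in Mkx-KO of 4 weeks. The lowest signals called well above background lay between 10.03 and 11.54. Among the undetected genes were Hoxa2, Hoxa3, Hoxa4, Hoxa5, Hoxa6, Hoxa10, Hoxa11 and Hoxa13, then Hoxb1, Hoxb5, Hoxb7, Hoxb8, Hoxb9 and Hoxb13, all of cluster C, and Hoxd1, Hoxd3, Hoxd9, Hoxd10, Hoxd11, Hoxd12 and Hoxd13. No array of a tissue known to carry these transcripts belongs to the series, so whether each silent probe can read its transcript was not tested.

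The laxer flag of the scanner software, a signal positive and significant against the local background, gave other counts. By it 16 to 20 Hox genes passed per array, 41.0% to 51.3%, against 81.8% to 85.5% of all named genes. On all arrays 12 Hox genes passed, 30.8%, against 76.8% of all named genes. The genes it added on all arrays were Hoxa2, Hoxa6, Hoxb2, Hoxc5, Hoxc8 and Hoxd9. On some arrays but not all, Hoxa4, Hoxa5, Hoxa10, Hoxa13, Hoxb6, Hoxb9, Hoxc6, Hoxc10, Hoxc13, Hoxd11 and Hoxd13 passed it. Among these, Hoxa10, Hoxa13, Hoxc10, Hoxc13, Hoxd11 and Hoxd13 belong to paralogue groups 10 to 13. Hoxa2, the selector gene of the second arch, read 2.73 and 8.58 in WT and Mkx-KO at 10 weeks and, at 4 weeks, 8.92 and 5.78. The highest negative control spots read 9.19, 6.21, 8.18 and 19.4 on the same arrays in the same order, so that Hoxa2 was above all of them on 2 arrays, Mkx-KO of 10 weeks and WT of 4 weeks, and below the highest on the others.

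The regulatory sequence just before a Hox gene was set beside its detection. RefSeq promoter windows of the mouse build GRCm38.p6 were at hand for 22 of the 39 genes, 24 windows in all because Hoxa10 and Hoxd11 had 2 starts each, and the 250 bases before each start were read. Dense CG pairs mark the CpG islands on which Polycomb complexes are known to gather at silent Hox genes. The 5 windows of genes detected on all arrays held 3 to 14 CG pairs with a median of 6, the same as the median of 6 over all 32851 windows in the table. The 19 windows of undetected genes held 2 to 35 with a median of 13. Their G and C content had a median of 49.6% for detected genes and 60.4% for undetected genes. The ranges overlap: Hoxb4, detected, held 14 CG pairs, and Hoxa2, Hoxb1 and Hoxc4, undetected, held 6, 7 and 8. Hoxb3, Hoxb2 and Hoxb6 had no entry.

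A pair of neighbours from each of clusters A and D is shown, one gene well above background on all arrays and the other on none, chosen after their values were seen. Hoxa6 and Hoxd9 did pass the laxer flag on all arrays. The sequences run 5′ to 3′ toward the gene's start, and capitals mark each CG pair. Hoxd8 (detected; chr2:74704365-74704614, plus strand, 6 CG pairs) and Hoxd9 (undetected; chr2:74697513-74697762, plus strand, 13 CG pairs) are neighbours in cluster D. Hoxa7 (detected; chr6:52218574-52218823, minus strand, 7 CG pairs) and Hoxa6 (undetected; chr6:52208673-52208922, minus strand, 24 CG pairs) are neighbours in cluster A.
Hoxd8: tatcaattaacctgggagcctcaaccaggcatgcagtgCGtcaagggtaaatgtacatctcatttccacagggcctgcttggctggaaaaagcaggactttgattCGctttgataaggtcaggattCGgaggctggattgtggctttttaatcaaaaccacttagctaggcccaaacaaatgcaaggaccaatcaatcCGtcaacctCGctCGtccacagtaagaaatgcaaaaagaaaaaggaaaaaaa
Hoxd9: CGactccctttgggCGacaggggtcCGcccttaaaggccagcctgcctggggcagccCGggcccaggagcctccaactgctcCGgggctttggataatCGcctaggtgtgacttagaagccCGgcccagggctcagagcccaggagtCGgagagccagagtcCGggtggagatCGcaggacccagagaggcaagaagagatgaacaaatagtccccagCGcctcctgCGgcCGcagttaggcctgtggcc
Hoxa7: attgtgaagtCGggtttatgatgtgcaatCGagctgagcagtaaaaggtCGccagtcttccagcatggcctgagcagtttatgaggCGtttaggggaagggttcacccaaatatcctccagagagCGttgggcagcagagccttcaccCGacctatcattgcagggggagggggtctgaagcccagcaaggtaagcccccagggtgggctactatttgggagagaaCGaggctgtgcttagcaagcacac
Hoxa6: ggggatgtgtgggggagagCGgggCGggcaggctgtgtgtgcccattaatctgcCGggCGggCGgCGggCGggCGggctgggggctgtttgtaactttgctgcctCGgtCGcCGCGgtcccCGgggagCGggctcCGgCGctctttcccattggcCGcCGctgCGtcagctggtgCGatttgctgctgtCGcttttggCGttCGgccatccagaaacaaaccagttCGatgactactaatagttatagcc
A pair of short motifs was searched on both strands, and no Hox window held both. The TATA box letters TATAAA were in 4 of 24 Hox windows, 16.7%, against 12.4% of all windows; among the genes detected on all arrays only Hoxd4 held it. The letters TGATTNAT, the form bound by Hox proteins together with their Pbx partners, were in the windows of Hoxa2 and Hoxd11, 8.33%, against 2.82% of all windows. These matches describe the letters and not binding.

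Hoxd8 had the smallest range of level over the arrays among the 6 genes by their brightest probes. It is a trunk Hox gene of the D cluster. At 10 weeks its processed signal was 156 in WT and 129 in Mkx-KO, and the arrays of 4 weeks read 152 and 174. As a level, the log2 signal minus the 75th percentile of the array, it stood at -1.43, -1.46, -1.29 and -1.22 in the same order, a range of 0.24. Levels of different genes rest on different probes and were not compared. Its second probe was also well above background on all arrays, with signals of 23.1, 18.8, 24.2 and 32.6 and a range of level of 0.61, beside 0.63 for Hoxd4 and 0.64 for Hoxa9 on their brightest probes.

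Hoxa9 and Hoxa7 are neighbours known from blood progenitors, where Hoxa9 keeps cells immature. Hoxa9 read 44.2 and 45.9 in WT and Mkx-KO at 10 weeks and, at 4 weeks, 61.1 and 60.5. Both arrays of 4 weeks were above both arrays of 10 weeks, also as levels, which were -3.25 and -2.95 at 10 weeks and -2.61 and -2.74 at 4 weeks. Its second probe was not well above background on any array, with signals from 2.50 to 7.15, so the 2 probes of Hoxa9 disagree on whether it is detected. Hoxa7, a gene of the trunk vertebrae, read 42.7 and 33.3 at 10 weeks and 17.1 and 20.9 at 4 weeks. It ran the other way, with both arrays of 10 weeks above both of 4 weeks.

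Hoxb2, Hoxb3 and Hoxb4 lie side by side and are known from the hindbrain and the arches behind the jaw. Hoxb3 read 49.7 and 48.4 in WT and Mkx-KO at 10 weeks and, at 4 weeks, 64.4 and 92.8. Its second probe read 68.3, 39.7, 56.0 and 60.1 in the same order, so it did not repeat the order of the ages. Hoxb4, known for its use in expanding blood stem cells, read 25.1 and 32.0 at 10 weeks and 25.7 and 21.0 at 4 weeks. Its values were not split by age or by genotype.

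Hoxb2 and Hoxb6 were at the limit of the flag. Hoxb2, whose product patterns the hindbrain and the second arch, read 9.44 and 9.33 in WT and Mkx-KO at 10 weeks and, at 4 weeks, 15.0 and 19.2. On the array of Mkx-KO at 4 weeks 1 negative control spot was itself called well above background at 19.4, above Hoxb2. Hoxb6, a gene of the trunk and forelimb, read 12.5 in Mkx-KO at 10 weeks with an error of 2.59 from the scanner software, while WT read 2.31 at 10 and 6.30 at 4 weeks and the younger Mkx-KO array 4.65. Hoxd4, a gene of the neck vertebrae, read 34.5 and 23.1 at 10 weeks and 19.8 and 28.7 at 4 weeks, with no split by age or genotype.

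**Figure D2:**
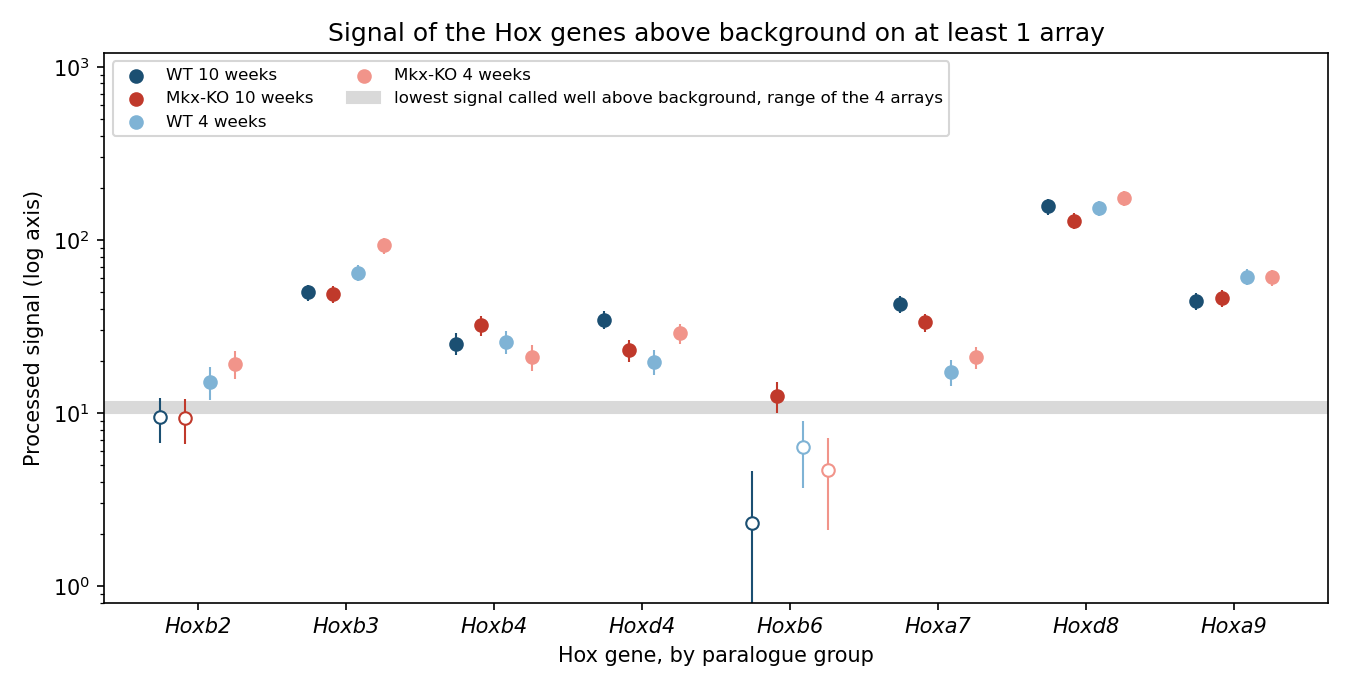
Processed signal on a log axis of the 8 Hox genes above background on at least 1 array, with 1 point per array and bars for the error estimate of the scanner software; filled points were well above background, open points were not, and the grey band spans the lowest signals so called on the 4 arrays, 10.03 to 11.54. The lower bar of Hoxb6 in WT at 10 weeks, where the error is as large as the signal, runs off the axis; Hoxa7 is higher on both arrays of 10 weeks and Hoxb3 and Hoxa9 on both of 4 weeks.

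The comparison of genotypes asked whether Hox transcripts of the ligament differ without Mkx. As a check of the labels, the brighter probe of Mkx itself gave 23.2% of the WT signal in Mkx-KO mice of 10 weeks and 31.6% in those of 4 weeks, after scaling. At 10 weeks none of the 6 Hox genes measured on both arrays was at least 2-fold apart, where 2.41% of all 16457 genes measured on both arrays were, 1.03% higher and 1.39% lower in Mkx-KO. Their differences, Mkx-KO minus WT, ran from -0.34 to 0.60 with 3 positive, 3 negative and a median of 0.09, and the median of all genes was 0.00. Hoxb4 was at the upper end, 0.60 with a technical error of 0.28, and Hoxd4 at the lower, -0.34 with an error of 0.27. Technical errors combine the scanner software's estimates for both spots and hold no variation between mice. Of the 6 differences only that of Hoxb4 exceeded 2 technical errors, against 14.01% of all genes. Hoxb6, flagged in Mkx-KO only, was there 1.43-fold above the lowest flagged level of the WT array. This ratio leaves out the technical error, which was 1.48 on a log2 difference of 2.68.

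At 4 weeks none of 7 Hox genes was at least 2-fold apart, against 3.79% of 15686 genes, 0.453% higher and 3.33% lower in Mkx-KO. The differences ran from -0.41 for Hoxb4 to 0.43 for Hoxd4, with 5 positive, 2 negative and a median of 0.17 beside 0.05 for all genes. None exceeded 2 technical errors, whose median for these genes was 0.31. Hoxb3 differed by 0.41 with an error of 0.21, but by -0.01 on its second probe. Between the ages the genotype difference turned sign for Hoxa7, Hoxa9, Hoxb4, Hoxd4 and Hoxd8, and only Hoxb3 was positive at both, at 0.21 and 0.41. On its second probe Hoxb3 was negative at both, at -0.53 and -0.01. With normexp background correction Hoxa7, Hoxd4 and Hoxd8 kept their sign between the ages, and with quantile normalization Hoxa9 did.

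The comparison of ages asked how Hox transcripts differ between the young and the adult tissue. In WT, Hoxa7 was 2.21-fold higher at 10 than at 4 weeks (log2 difference 1.14, technical error 0.29). It was the only one of 6 measured Hox genes at least 2-fold apart, where 8.87% of 16102 genes were, 5.39% higher and 3.48% lower at 10 weeks. Hoxd4 was also on the higher side, at 0.63. Hoxa9, Hoxb3, Hoxb4 and Hoxd8 were lower at 10 weeks, at -0.64, -0.55, -0.21 and -0.14. The median of the 6 was -0.18, with 4 of 6 beyond 2 technical errors, namely Hoxa7, Hoxa9, Hoxb3 and Hoxd4, against 33.8% of all genes. The second probe of Hoxb3 gave 0.11. Hoxb2, flagged at 4 weeks only, was there 1.63-fold above the lowest flagged level of the 10-week array. This ratio leaves out the technical error, which was 0.52 on a log2 difference of -0.85.

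In Mkx-KO, none of 6 Hox genes was at least 2-fold apart between the ages, against 10.1% of 15669 genes, 6.68% higher and 3.39% lower at 10 weeks. With quantile normalization the split of those genes was 838 higher and 663 lower, against 1047 and 531. Hoxa7 was again higher at 10 weeks, by 0.86 with an error of 0.27, and Hoxb4 by 0.80 with an error of 0.30. Hoxb3 was lower, at -0.75 with an error of 0.22, while Hoxd8, Hoxa9 and Hoxd4 stood at -0.24, -0.21 and -0.13. The median was -0.17, and 3 of 6 differences, those of Hoxa7, Hoxb3 and Hoxb4, exceeded 2 technical errors, against 39.3% of all genes. The second probe of Hoxb3 gave -0.41. Hoxb2 at 4 weeks was 1.68-fold above the lowest flagged level of the 10-week array. Hoxb6 at 10 weeks was 1.27-fold above that of the 4-week array. These ratios leave out the technical errors, 0.50 and 0.84 on log2 differences of -0.85 and 1.61. The age differences of Hoxa7 shrank to 0.33 in each genotype with normexp background correction and an offset of 50, and to 0.95 in WT and 0.45 in Mkx-KO with quantile normalization, all under 2-fold. In WT, those of Hoxa9, Hoxb3 and Hoxd4 were -0.38, -0.33 and 0.08 with normexp and -0.79, -0.70 and 0.43 with quantile. In Mkx-KO, those of Hoxb3 and Hoxb4 were -0.39 and 0.34 with normexp and -1.02 and 0.39 with quantile. The comparisons of genotype and age share arrays and are not independent of each other.

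**Figure D3:**
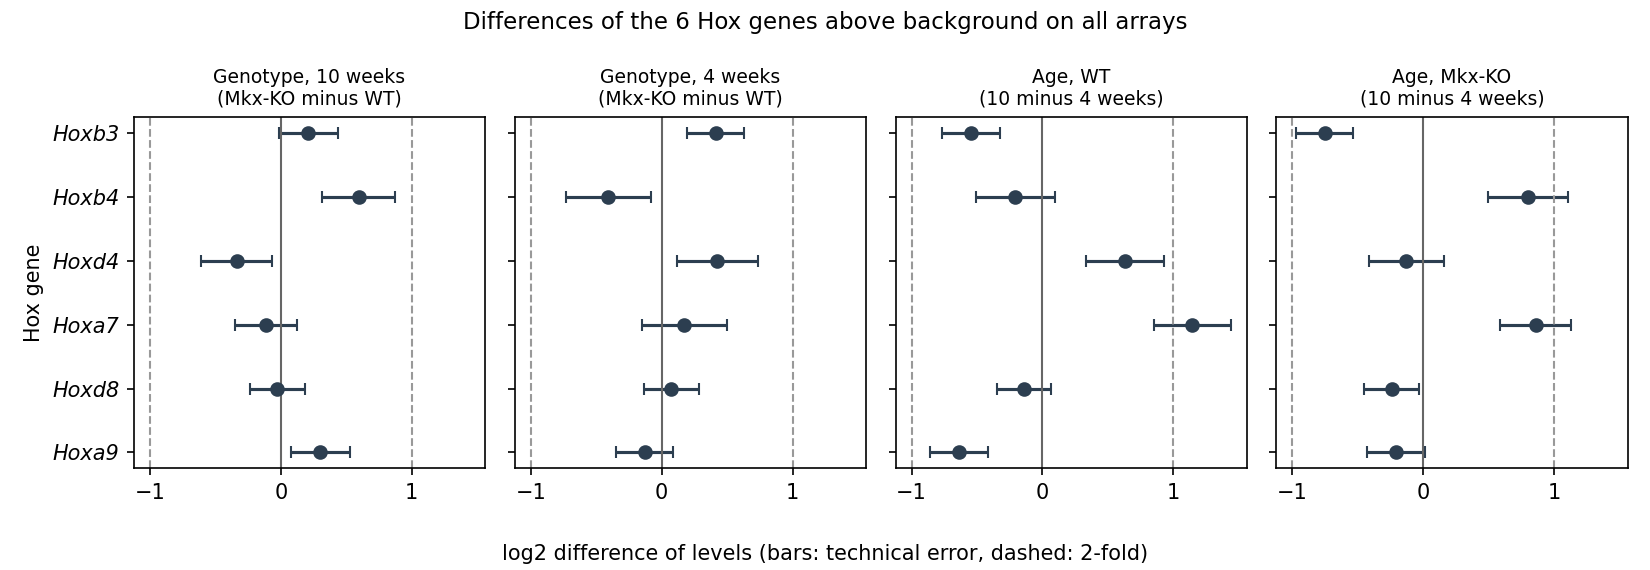
Log2 differences of levels for the 6 Hox genes above background on all arrays, in a panel for each comparison, with bars for the technical error and dashed lines at 2-fold. The 1 point beyond a dashed line is Hoxa7 in the age comparison of WT, at 1.14.

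A fit of genotype and age over all 4 arrays gave no Hox gene and no other gene. limma, with 1 residual degree of freedom and Benjamini-Hochberg adjustment over 16795 genes, called 0% of genes for either term at an adjusted p of 0.05. Of the 6 Hox genes flagged on all arrays, the smallest adjusted p of limma was 0.184 for age, for Hoxa7 (coefficient 1.001), and 0.9997 for genotype. At an unadjusted p under 0.05, limma had 2 of these 6 for age, Hoxa7 and Hoxb3, among 3852 of the 16795 genes. For genotype it had 0 of them, among 459 genes. The age coefficient of Hoxb3 was -0.65 on its brightest probe and -0.15 on its second, also flagged on all arrays. Hoxb2 entered the fit only through the age at which it was flagged, so its age term is not given.

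The homeobox genes that pattern the head skeleton were nearly all present. Of 22 such genes fixed as a list, 20 were well above background on all arrays and none was absent from all. The Dlx genes, which set the identity of the arch along its upper and lower parts, passed 6 of 6, and so did Msx1, Msx2, Barx1, Lhx6, Lhx8, Pitx1, Prrx1, Prrx2, Shox2 and Gsc. Alx1 was flagged in the WT arrays of both ages only, and Otx2, a gene of the forebrain and nose, on 3 arrays with a signal of 2.98 in Mkx-KO at 4 weeks. Of the members flagged on both arrays, none was at least 2-fold apart by genotype at either age on its brightest probe, with medians of -0.07 and 0.27. The second probe of Msx2 gave 1.01 at 4 weeks. At 4 weeks Otx2 was flagged in WT alone, 18.04-fold above the lowest flagged level of the Mkx-KO array. Its second probe, well above background on only 1 array of the series, gave -0.13 in that comparison and did not repeat the difference. By age in WT, 1 of 22 was at least 2-fold lower at 10 weeks on its brightest probe, namely Msx2 at -1.16, where 3.48% of all genes were. In Mkx-KO 6 of 20 were lower and 1 higher, where 3.39% and 6.68% of all genes were, with Msx2 at -1.84, Dlx4 at -1.65 and Alx4 at 1.17.

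The partners of Hox proteins were present as well. Of 9 cofactor genes, 8 were well above background on all arrays, among them Pbx2 and Pbx3, Meis1, Meis2 and Meis3, and Pknox1 and Pknox2; Pbx4 was not on any. Their products bind DNA beside Hox proteins and also act without them in the head. Meis2 stood apart in the cofactor list, with signals of 148 and 242 in WT and Mkx-KO at 10 weeks and, at 4 weeks, 244 and 24.4, which gave -3.44 between the genotypes of the younger age. Its second probe gave -3.34. Among 4 listed forebrain neuron markers, Gad1 and Slc32a1 were likewise lowest in Mkx-KO of 4 weeks and next in WT of 10 weeks. Gad1 had signals of 28.3, 151, 242 and 17.97, and Slc32a1 63.3, 235, 571 and 26.3. In Mkx-KO of 4 weeks 3 of the 4 were at least 2-fold lower than in WT, where 3.33% of all genes were. The summed level of the list moved less, at 20.6, 24.3, 20.7 and 18.3 in the same order. The summed olfactory neuron, nasal gland and skeletal muscle lists were also lowest in Mkx-KO of 4 weeks. The part of any of these in the Meis2 difference was not tested. Meis1 was higher at 10 weeks by 0.92 in WT and 1.77 in Mkx-KO. No other cofactor was at least 2-fold apart in any comparison on its brightest probe. The second probe of Pknox1, flagged on all arrays, disagreed with the first, at 3.25 by genotype at 4 weeks and -3.14 by age in Mkx-KO, against 0.15 and -0.26.

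A list of the ParaHox genes, the Evx genes, Mnx1, Gbx1 and Gbx2 was mostly undetected. Of 11, only 2 were well above background on all arrays, Evx2 and Gbx1, and 9 on none, among them Cdx1, Cdx2, Cdx4, Pdx1 and Evx1. Evx2, the homeobox gene next to Hoxd13, read 107 and 91.9 in WT and Mkx-KO at 10 weeks and, at 4 weeks, 25.8 and 26.4. It was higher at 10 weeks by 1.88 in WT and 1.99 in Mkx-KO, while Hoxd13 beside it was not well above background on any array.

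**Figure D4:**
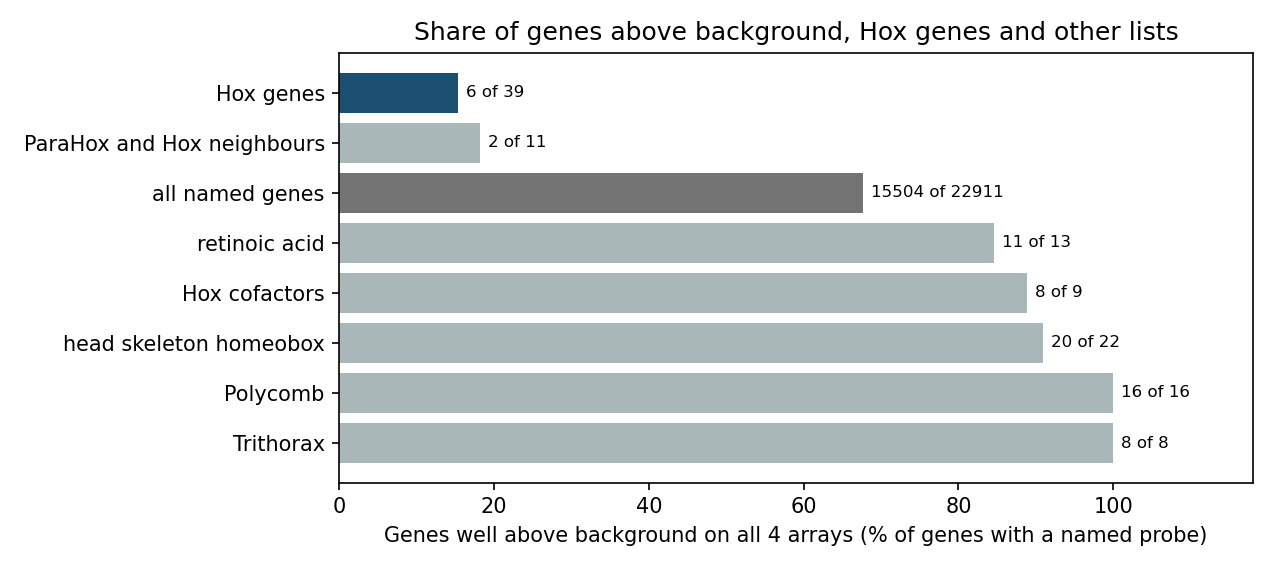
Bars give the share of genes well above background on all 4 arrays, in percent of the genes with a named probe, for Hox genes, for all named genes and for the lists of related genes, with counts at the bar ends. Hox genes, at 6 of 39, stand with the list labelled ParaHox and Hox neighbours, which also holds Mnx1, Gbx1 and Gbx2. Of the head skeleton homeobox genes 20 of 22 passed.

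The chromatin regulators of the clusters were at hand in all groups. Of 16 Polycomb genes, whose complexes keep Hox genes silent, 16 passed on all arrays, and none was at least 2-fold apart in any comparison. The member farthest apart, Cbx7, was higher at 10 weeks by 0.74 in WT and 0.96 in Mkx-KO. Of 8 measured Trithorax group genes, which keep Hox genes active, 8 passed and none was 2-fold apart; the demethylase gene Kdm6b differed by -0.41 and -0.71 between the ages. Retinoic acid is a known inducer of Hox genes of low number, and 11 of 13 measured genes of its pathway passed on all arrays. Cyp26a1, the enzyme gene that degrades it, was flagged at 4 weeks only, with 22.5 on the WT and 112 on the Mkx-KO array, 2.20 apart on the log2 scale. Aldh1a1, a gene of its synthesis, differed by -1.27 at 4 weeks, and Stra6, the retinol uptake receptor gene, was higher at 10 weeks by 1.08 in WT and 1.38 in Mkx-KO.

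The arrays carried markers of other cell types next to those of the ligament. Ligament markers, 6 of 6, were well above background on every array, with a summed level of 321 to 344 times the array's 75th percentile. Postn was the brightest of them, at 108216 in WT at 10 weeks beside 22152 for Aspn. The median of the ligament list was -0.25 by age in WT and -0.55 in Mkx-KO. Of 98 markers in 17 lists of cell types, 94 to 98 passed per array. The array of Mkx-KO at 4 weeks stood apart: the olfactory neuron list summed to 0.71 there and to 29.6 to 36.2 on the other arrays, the nasal gland list to 0.73 against 461 to 1671, and the skeletal muscle list to 9.67 against 25.7 to 56.9. Cnga2 and Bpifb9b were not well above background there. The smooth muscle list summed to 44.2 there against 14.5 to 18.1. The forebrain neuron list had a median of -4.21 by genotype at 4 weeks and 3.30 by age in Mkx-KO, and it also moved where that array is not used, by 1.63 between genotypes at 10 weeks and -2.62 between ages in WT. Its summed level moved less, from 18.3 to 24.3 over the arrays. The count of Hox genes on that array was 7, against 6 to 7 on the others. The genotype comparison at 4 weeks and the age comparison in Mkx-KO rest on that array, and the other pair of comparisons does not. Some cell type lists moved in that other pair too. The epithelial list had medians of -0.96 by genotype at 10 weeks and 1.16 by age in WT. The nasal gland list had 0.75 and 1.84 and the endothelial list 0.11 and -0.23. Epithelial markers summed to 610 and 328 in WT and Mkx-KO at 10 weeks and to 231 and 410 at 4 weeks.

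Markers of blood cells were on every array and moved between the arrays. Blood progenitor markers passed 7 of 8 on all arrays, with summed levels of 21.1 to 24.8 and Mecom flagged in Mkx-KO at 10 weeks alone. Cd34 was the brightest of them, at 7705 in WT at 10 weeks beside 1490 for Hlf, so the sum follows Cd34 above all. Hlf itself differed by -1.95 between genotypes at 4 weeks and by 2.93 between ages in Mkx-KO. Neutrophil precursor markers summed to 86.4 and 148 in WT and Mkx-KO at 10 weeks and to 63.6 and 23.7 at 4 weeks, and erythroid markers to 20.4, 29.1, 79.0 and 36.6. Beside the genotype differences of Hoxb4, 0.60 at 10 and -0.41 at 4 weeks, the neutrophil precursor list had medians of 0.85 and -1.30 and the erythroid list 0.65 and -0.38. The blood progenitor list had 0.13 and 0.07, the B cell list 0.96 and 0.93 and the T cell list -0.06 and -0.01 in the same comparisons. The turn of sign was not particular to blood lists. The skeletal muscle list had 0.27 and -1.20, the nasal gland list 0.75 and -7.33 and the forebrain neuron list 1.63 and -4.21. The epithelial list, at -0.96 and 0.73, and the smooth muscle list, at -0.08 and 0.57, turned the other way. Of the other Hox genes, Hoxa9 turned as Hoxb4 did, at 0.30 and -0.13, and Hoxb3 was positive at both ages. Hoxa7, Hoxd4 and Hoxd8 turned the other way, at -0.11 and 0.17, -0.34 and 0.43, and -0.03 and 0.07. Beside the age differences of Hoxa7, 1.14 in WT and 0.86 in Mkx-KO, the blood progenitor list had medians of 0.47 and 0.73 and the skeletal muscle list 1.28 and 2.66. By their brightest probes Hoxa9, Hoxb3 and Hoxd8 were lower at 10 weeks in both genotypes, and Hoxb4 and Hoxd4 turned sign between the genotypes. By age the neutrophil precursor list had 0.40 and 2.61 and the erythroid list 0.14 and 1.32. The T cell list had 0.73 and 0.56 and the B cell list -0.75 and -0.33. The part of these cells in the Hox differences was not tested. In a bulk array, fewer cells of a type and less RNA per cell cannot be told apart.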

How the data were processed

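The 4 groups were read on 1 one-colour Agilent array each. Per the file headers, the deposited scan files hold spot intensity from Agilent Feature Extraction 11.5.1.1, background-subtracted and detrended within each array, with an error estimate and flags such as well above background, which count here as other values. The deposited series table holds intensity on a linear scale in which each array's processed signals are multiplied by a constant (1.54 to 2.08). Per the labels, the RNA was isolated with ISOGEN, and its cRNA carried Cy3.

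Of 56605 probes, 32994 (58.3%) were named by matching RefSeq accessions to a RefSeq gene table of GRCm38.p6; the array design is annotated on mm9, so positions are given only for RefSeq promoter windows of GRCm38.p6, and the order of genes is that table's. No spot was saturated, and 60 to 77 outlier spots per array were left out. The scanner software called 61.8% to 66.6% of the spots of an array well above background. Signals were log2 transformed, the 75th percentile of each array was subtracted, and the probe with the brightest mean represented its gene. A gene measured on both arrays of a pair was called at 2-fold. A gene flagged on 1 array only was bounded by the higher of its own level and the lowest flagged level on the other. These bounds leave out the technical error. The number of arrays, 1 per group, limits the precision, so pairs have no p-value. Genes flagged on at least 2 arrays entered an additive model of genotype and age (limma 3.58.1, R 4.3.3), which was tested on simulated data. Tables and plots were made with pandas 2.3.3, numpy 2.4.6 and matplotlib 3.10.9 under Python 3.11.15.

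The members, gene lists and tests were chosen with earlier results of these data known. All Hox genes may be named; of a related list, the 3 members with the largest mean difference among those flagged on all arrays, and those not flagged on any array, may be named. Alx1, Otx2, Cyp26a1, Mecom, Pknox1, Cnga2, Bpifb9b and other list members outside that rule were named after their values were seen. Alternatives concerned the flag, background correction, scaling, probe choice, fold threshold and place on the array. For normexp the median spot signal stood in for the mean. Some genes of the lists are counted but not reported by name here.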

Additional observations from a re-analysis of the deposited data

Results flagged for a closer look

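The genotype difference, Mkx-KO minus WT, took opposite signs at the 2 ages for 5 of the 6 Hox genes above background on all arrays, each with 1 array per group, and this difference between ages was not tested. As the difference at 10 weeks minus that at 4 weeks, Hoxb4 gave 1.004 with a technical error of 0.43, Hoxd4 -0.76 with an error of 0.41, Hoxa9 0.43 with an error of 0.31, Hoxa7 -0.29 with an error of 0.40 and Hoxd8 -0.10 with an error of 0.29. Only that of Hoxb4 exceeded 2 technical errors. The signs depended on the processing. With normexp they were the same at both ages for Hoxa7 (0.04 and 0.04), Hoxd4 (0.05 and 0.12) and Hoxd8 (0.002 and 0.03). With quantile normalization they were the same for Hoxa9 (0.27 and 0.01). With the mean over probes Hoxa9 also kept its sign, and Hoxb3 turned, at -0.16 and 0.20. The share of all genes with opposite signs was not counted.

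Transcripts of the clusters outside the Hox genes gave signals above background that no comparison above uses. The noncoding transcript Hoxb5os read 636 at its lowest over the arrays on probe A_66_P128000, while its other probe was not well above background on any array. Haglr, a noncoding transcript of the Hoxd cluster, read 266 in WT and 223 in Mkx-KO of 10 weeks, against 495 and 752 in mice of 4 weeks. It was lower at 10 weeks by -1.07 in WT and -1.57 in Mkx-KO. Hoxaas3 read at least 42.6 and Hottip at least 13.2 on all arrays.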

How the results depend on the processing

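With the laxer flag the count of Hox genes per array rose from 6 to 18 in WT and 7 to 20 in Mkx-KO at 10 weeks, and from 7 to 16 in both groups at 4 weeks. The share of all named genes per array was 81.8% to 85.5% with that flag, against 69.6% to 73.7% with the main flag. Counting any probe, all probes, every replicate spot or a limit of 2 error estimates kept each count within 1.5 times. Without a filter on dim probes, which takes in every Hox gene, 4 and 1 were 2-fold apart by genotype at 10 and 4 weeks. By age 7 and 4 were in WT and Mkx-KO. The shares of all named genes in these comparisons were 6.05%, 9.04%, 12.8% and 15.2%. With the laxer flag 2 Hox genes were called at 10 weeks and 0 at 4 weeks by genotype, and 4 and 2 by age. The shares of all genes were then 4.54%, 7.24%, 12.0% and 13.9%. At 1.5-fold 1 Hox gene was called for genotype at 10 weeks, 0 at 4 weeks and 3 for age in each genotype. The shares of all measured genes were 8.90% and 9.82% for genotype and 22.7% and 26.1% for age in WT and Mkx-KO. At 3-fold Hoxa7 was lost in WT, which left 0, against 3.10% of all genes. With normexp or quantile normalization 0 Hox genes were called for age in WT, against 4.37% and 9.17% of all genes. With quantile 1 was called for age in Mkx-KO, against 9.58% of all genes. Of 25 single differences, normexp moved 8 by more than their technical error, quantile and the mean over probes 5 each, and the deposited values, the local correction and the median of probes 0; the sign changed for 4 with normexp, 1 with quantile and 3 with the mean over probes. The additive limma fit called 0 Hox genes under each of its alternatives, and for age 21 genes in all with normexp against 0. No paired analysis was possible because each group has 1 array. Signal over background limits the dim genes: the highest negative control on an array, 19.4, lies above Hoxb2.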
